A study of Mus musculus with 61 samples.

Results

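The SALL1 sites described here are the 604 peaks of the C57/Bl6 wild-type (WT) microglial list that were overlapped, by at least 1 bp, both by a SALL1 peak of PWK microglia and by a SALL1 peak of SPRET microglia. They made up 3.92% of the 15410 WT peaks. Of the other WT peaks, 1799 had a partner only in PWK, 989 only in SPRET and 12018 in neither. The peak calls of the 3 lists chose the sites, so all SALL1 scores below are a description without a test. Measures that the choice did not use were p300 and SMAD4 peaks, acetylation of histone H3 at lysine 27 (H3K27ac) in WT and Sall1 enhancer knockout (EKO) cells, position and sequence.

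The study collected chromatin immunoprecipitation sequencing (ChIP-seq) from mouse brain, with 31 ChIP libraries and 30 inputs, to ask how SALL1 shapes the chromatin of microglia. EKO mice, on the C57/Bl6 strain, were homozygous for a CRISPR/Cas9 deletion in a distant enhancer of Sall1, carried by all their cells. Microglial H3K27ac was measured in 2 EKO and 2 WT libraries of cells labelled CD45+ CD11b+ CX3CR1+, and nuclear H3K27ac in 2 EKO and 2 WT libraries each of PU1+, Olig2+ and NeuN+ nuclei. SALL1 was measured in EKO, PWK, SPRET (labelled Spret) and WT microglia, the PWK and SPRET mice being labelled wild type, with 2 libraries in each group. SMAD4 was measured in 2 libraries of a mutant and 2 WT libraries, and p300 in 3 WT libraries. The mutant SMAD4 libraries carry a conditional SMAD4 deletion in their titles. Their inputs and their peak list are named EKO instead, and the study's text describes SMAD4 ChIP-seq in EKO cells. Because the labels conflict, these libraries are called mutant-labelled here. The SALL1 libraries are labelled as whole microglia, whereas the study's text describes nuclei sorted for SALL1 and PU.1. Of the p300 libraries, library 1 is labelled as microglia and the others as PU1+ nuclei. The labels give no age, and nothing in them states that the libraries of a group came from separate animals, so p-values measure the spread between libraries, which may be technical.

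SALL1 is a zinc finger transcription factor that microglia, the resident macrophages of the brain, express and other macrophages largely lack. It is known for upholding the microglial gene program. PU.1, an ETS factor, and its partners of the IRF family open many macrophage enhancers, p300 is a co-activator that acetylates histones there, and SMAD4 carries TGF-beta signals to DNA as the common partner of the receptor-activated SMADs. H3K27ac marks active enhancers and promoters. PWK and SPRET are wild-derived strains whose genomes differ from C57/Bl6 at a great many positions, so the letters under a site need not be the same in all 3.

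The sequences of 6 sites are shown because they carry the extremes of the results. Those nearest to Numb, Myog and Scel stood among the 6 sites ranked best over the strains, Tmc7 and 1700122C19Rik had the largest falls of H3K27ac outside Sall1, and Ehd1 had the largest rise. Each sequence is the 200 bp around the peak centre, on the + strand of the RefSeq GRCm38 (mm10) genome, 5′ to 3′. Capitals mark matches, on either strand, to a PU.1 motif (GAGGAAGT), a PU.1-IRF motif (GAANNGAAA) or the ETS core (GGAAGT), which the PU.1 motif contains.
Numb site, chr12:83929322-83929521: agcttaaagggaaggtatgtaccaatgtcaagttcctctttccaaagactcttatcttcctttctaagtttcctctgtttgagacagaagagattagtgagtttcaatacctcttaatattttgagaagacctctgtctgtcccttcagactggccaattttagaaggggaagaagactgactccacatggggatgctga
Myog site, chr1:134302842-134303041: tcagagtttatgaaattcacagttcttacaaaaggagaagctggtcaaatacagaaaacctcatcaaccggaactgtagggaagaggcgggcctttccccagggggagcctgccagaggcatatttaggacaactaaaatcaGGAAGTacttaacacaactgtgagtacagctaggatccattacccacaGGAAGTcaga
Scel site, chr14:103477981-103478180: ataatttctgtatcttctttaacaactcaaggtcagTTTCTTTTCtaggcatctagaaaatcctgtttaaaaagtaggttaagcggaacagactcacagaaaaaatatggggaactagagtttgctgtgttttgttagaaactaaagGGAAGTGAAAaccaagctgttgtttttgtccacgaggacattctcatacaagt
Tmc7 site, chr7:118577639-118577838: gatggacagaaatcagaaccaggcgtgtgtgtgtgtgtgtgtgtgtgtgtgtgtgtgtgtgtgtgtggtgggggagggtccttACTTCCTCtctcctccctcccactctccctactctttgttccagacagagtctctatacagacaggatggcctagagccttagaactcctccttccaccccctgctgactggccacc
1700122C19Rik site, chr19:37494294-37494493: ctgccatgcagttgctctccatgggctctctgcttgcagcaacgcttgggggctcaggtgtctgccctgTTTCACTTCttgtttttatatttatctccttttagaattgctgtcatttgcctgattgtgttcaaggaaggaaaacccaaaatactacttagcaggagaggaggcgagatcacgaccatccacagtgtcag
Ehd1 site, chr19:6275996-6276195: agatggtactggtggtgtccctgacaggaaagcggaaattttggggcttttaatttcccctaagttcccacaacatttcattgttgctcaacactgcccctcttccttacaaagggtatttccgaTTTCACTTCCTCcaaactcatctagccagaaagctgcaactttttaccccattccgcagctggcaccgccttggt
The Numb window held none of these matches. The Scel, Tmc7, 1700122C19Rik and Ehd1 windows each held a PU.1 or PU.1-IRF match, and the Myog window held the ETS core alone.

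Sites found in all 3 strains were mostly the strongest SALL1 sites of C57/Bl6 microglia. Their score in the WT list, a whole number that the authors give each peak, ran from 16 to 464 with a median of 143.5, against a median of 45 for the other WT peaks. In all, 515 sites (85.3%) stood in the top quartile of WT scores (83 and above), as did 22.5% of the other WT peaks. The share of WT peaks found in both further strains was 0.28% below a score of 50, 2.54% from 50 to 99, 11% from 100 to 149, 19.9% from 150 to 199, 27.8% from 200 to 249 and 42.1% of the 159 peaks at 250 and above. Even among those 159 strongest peaks, 50 were matched only in PWK, 24 only in SPRET and 18 in neither.

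**Figure D1:**
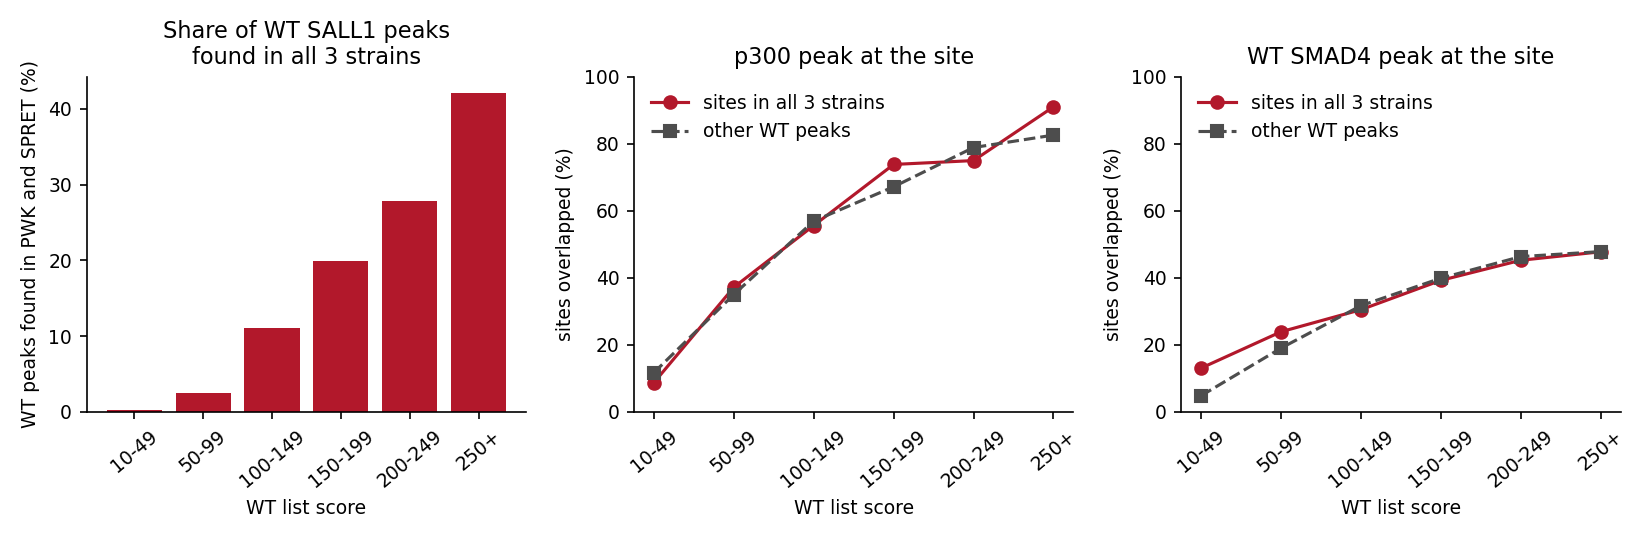
Sharing of SALL1 peaks by score. The left panel gives the percent of WT SALL1 peaks found in PWK and SPRET in each bin of the WT list score, and the other panels give the percent of peaks overlapped by a p300 or a WT SMAD4 peak for sites in all 3 strains (circles) and other WT peaks (squares). Sharing climbed with score to 42.1%, while the p300 and SMAD4 curves of both classes lay close together within most score bins.

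The shorter lists limit how many sites could be shared. The PWK list held 3627 peaks and the SPRET list 2245, and the 604 sites used 16.7% of the PWK and 26.9% of the SPRET peaks, each matching 1 site. Of the WT peaks with a PWK partner, 25.1% also had a SPRET partner, and of those with a SPRET partner, 37.9% also had a PWK partner. The reads of all strains were placed on mm10, and what part mapping, depth or antibody yield had in the shorter lists was not tested. Each list pools the libraries of its group, so overlaps have no replicate spread, and intervals on shares below cover counting error only.

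The order of the sites by score was alike in the 3 lists without being identical. Scores at the sites had a median of 22 (9 to 106) in PWK and 25 (11 to 111) in SPRET, and scores are not comparable between lists. Spearman's rho over the 604 sites, which were selected by all 3 lists, was 0.61 between WT and PWK, 0.65 between WT and SPRET and 0.54 between PWK and SPRET. At their median the sites stood at 8.20% from the top of the WT list, 20.9% of the PWK list and 28.6% of the SPRET list. The authors' reproducibility score reached its maximum of 1000 at 599 sites in WT, 504 in PWK and 451 in SPRET.

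Few sites depended on the overlap threshold. The median overlap was 214 bp with the PWK peak and 213 bp with the SPRET peak, and the median distance of peak centres was 27 and 28 bp. Just inside the threshold lay a site nearest to Tmc7 with 3 bp of PWK overlap, one at Rnf5 with 7 bp of SPRET overlap and one at Chd2 with 25 bp of PWK overlap. Just outside lay a peak at Ldhal6b, 16 bp from a PWK peak, one at 4931402G19Rik, 16 bp from a SPRET peak, and one at Znrf2, 48 bp from a PWK peak.

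SALL1 peaks were nearly all missing from EKO cells. Their list held 7 peaks, against 15410 in WT. Of the 7, 2 overlapped shared sites. The site nearest to Prdm1, which encodes the repressor BLIMP1, scored 22 in EKO, against 238 in WT, 52 in PWK and 35 in SPRET. A site in an intron of Il17ra, a receptor subunit for interleukin 17, scored 20 in EKO, against 178 in WT, 22 in PWK and 27 in SPRET.

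The 6 sites with the best mean rank over the lists lay near genes of varied function. The Elmo1 site, in an intron of a gene that acts with DOCK proteins to activate Rac during engulfment, scored 454 in WT, 106 in PWK and 111 in SPRET. The site upstream of Numb, an adaptor that restrains Notch signalling, had the highest WT score of all, 464, with 81 in PWK and 101 in SPRET. Ssh2, a cofilin phosphatase, had an intronic site of 387, 72 and 98 in the same order of lists. Sites nearest to Myog (308, 60 and 99), Scel (312, 75 and 69) and Abca9 (424, 59 and 68) completed the group. Myog encodes a muscle transcription factor and Scel a protein of cornified epithelium, and nearest gene here means only the authors' annotation of the nearest open-chromatin window.

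Most sites lay outside promoters, as WT SALL1 peaks did in general. By that annotation 291 sites were intronic, 243 intergenic and 41 at promoters. Sites within 3 kb of a transcription start site (TSS) numbered 106 (17.5%), against 18.7% of the other WT peaks, and the median distance to a TSS was 17540 bp, against 17970 bp. They were spread over 523 nearest genes, and chromosome 1 held the most, with 64.

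Some genes gathered several shared sites. There were 58 genes with 2 or more, 19 with 3 or more and 4 with 4 sites. Those with 4 were Srgap2, a Rac GTPase-activating protein, Ifngr1, a chain of the interferon-gamma receptor, Tmsb4x, which encodes the actin-sequestering thymosin beta 4, and the zinc finger factor gene Klf4. The Srgap2 sites spanned 44949 bp and scored 85 to 236 in WT, and 1 of them held p300. The Ifngr1 sites spanned 37542 bp upstream of the gene, scored 148 to 221, and 1 held p300. The Tmsb4x sites spanned 39106 bp and 3 held p300, whereas the Klf4 sites lay at −272991 to −209072 bp relative to the Klf4 TSS and 3 held p300. Nlrp3, the sensor of an inflammasome, had 3 sites within 15873 bp, and all 3 were overlapped by p300, WT SMAD4 and mutant-labelled SMAD4 peaks. Zfhx3, a large homeobox factor gene, had 3 sites, all with p300, scoring 143 to 322.

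p300 occupied most shared sites. A p300 peak overlapped 368 sites (60.9%, Wilson 95% interval 57 to 64.7%), against 26.5% of the other WT peaks. A mutant-labelled SMAD4 peak overlapped 131 sites (21.7%, 18.6 to 25.1%), against 7.39% of the other peaks, and a WT SMAD4 peak overlapped 208 sites (34.4%, 30.8 to 38.3%), against 13.8%. Both p300 and WT SMAD4 were present at 178 sites, p300 alone at 190, WT SMAD4 alone at 30 and neither at 206. The sites with both had a median WT SALL1 score of 172, and those with neither 118.

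The difference from other peaks went largely with score. In the top quartile, p300 overlapped 67.6% of shared sites and 56.6% of the other peaks, WT SMAD4 37.5% and 32.4%, and mutant-labelled SMAD4 24.1% and 18.7%. The shared sites were stronger even there, with a median score of 158 against 116. In bins of 50 score units, p300 overlapped 55.6% of shared sites against 56.9% of other peaks from 100 to 149, 73.8% against 67.2% from 150 to 199, 75% against 78.9% from 200 to 249, and 91.0% against 82.6% of the 67 shared and 92 other peaks at 250 and above. For WT SMAD4 the same bins gave 30.5% against 31.7%, 39.2% against 39.9%, 45.2% against 46.3% and 47.8% against 47.8%. For mutant-labelled SMAD4 they gave 20.3% against 16.7%, 26.9% against 24.6%, 28.6% against 36.2% and 34.3% against 43.5%, so shared sites were lower than other peaks from a score of 200.

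SMAD4 differed between its lists at these sites. Of the 604 sites, 97 were in both SMAD4 lists, 34 only in the mutant-labelled list, 111 only in the WT list and 362 in neither. Thus 46.6% of the shared sites with WT SMAD4 also had a mutant-labelled peak, against 38.0% of the other SALL1 peaks with WT SMAD4. The mutant-labelled list was the shorter one, with 2333 peaks against 4024 in WT.

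Motifs of several macrophage enhancer factors, though not that of AP-1, were more frequent at the shared sites than at acetylated windows without a SALL1 peak. Within 200 bp of sequence, a PU.1 match (GAGGAAGT) was found at 16.9% of shared sites, a PU.1-IRF match (GAANNGAAA) at 27.8%, an ETS core (GGAAGT) at 55.3%, a C/EBP match (TTGCNNAA) at 17.9% and a RUNX match (TGTGGTT) at 10.6%, counting both strands. Among the other WT peaks these shares were 13.2%, 18.4%, 43.9%, 13.4% and 7.31%, and among 40592 H3K27ac windows without a SALL1 peak they were 6.96%, 7.34%, 31.5%, 8.10% and 4.22%. An AP-1 match (TGANTCA) was found at 6.95% of shared sites, 7.57% of the other WT peaks and 7.03% of windows without a peak, and a MEF2 match (TATTTNTAG) at 2.15%, 2.88% and 0.884% of the same classes. In all, 244 sites held a PU.1 or PU.1-IRF match and 424 held one of these or an ETS core.

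Set beside other peaks of the top score quartile, the shared sites had a PU.1-IRF match more often (27.8% against 24.1%) and a PU.1 match about as often (16.9% against 17.1%). A SMAD motif of letters GTCTG was found at 39.1% of shared sites, 45.2% of the other top-quartile peaks, 38.0% of all other peaks and 41.3% of windows without a peak. Of the sites that held it, 45.8% had a WT SMAD4 peak, against 27.2% of the sites that did not. An AT-rich match (AATATT), letters that SALL proteins are known to bind, was found at 7.95% of shared sites, 5.70% of the other top-quartile peaks and 11.1% of all other peaks. It was found at 1.91% of windows without a peak. Windows without a peak were richer in G and C, with a median of 53.5% against 44.25% at shared sites and 44.5% at the other peaks, which bears on every motif share. A match describes letters and not a bound site.

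**Figure D2:**
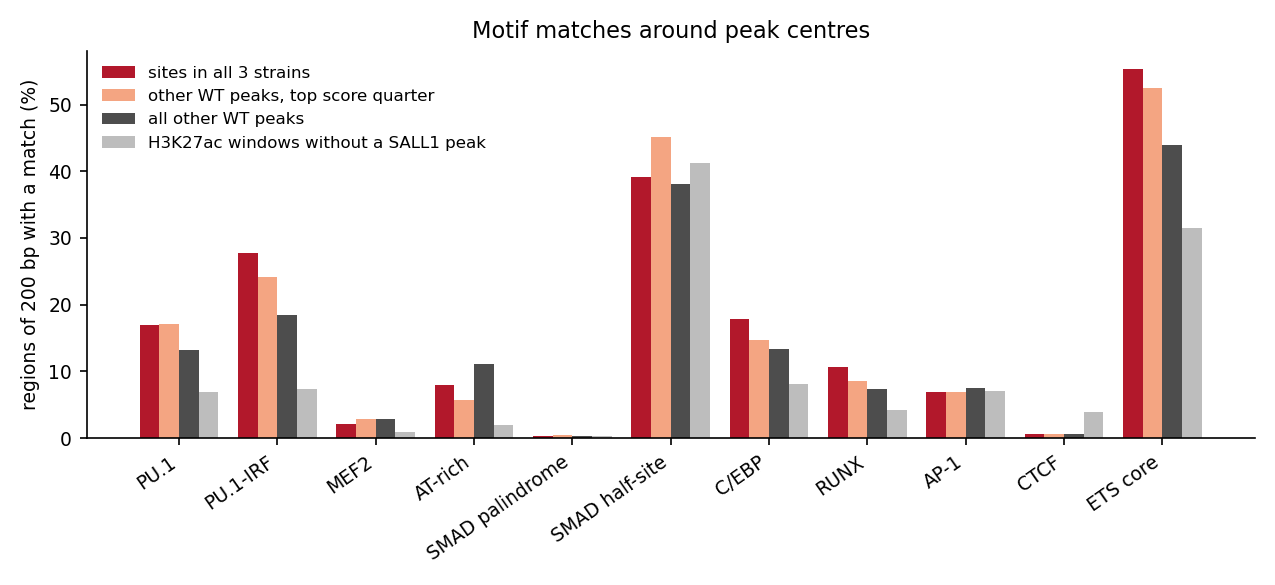
Motif matches by class of region. Bars give the percent of 200 bp regions with a match on either strand for sites in all 3 strains, other WT peaks of the top score quartile, all other WT peaks and H3K27ac windows without a SALL1 peak. PU.1-IRF matches were found at 27.8% of the shared sites and 7.34% of windows without a peak. The SMAD motif GTCTG was found at 39.1% of the shared sites and 45.2% of the other top-quartile peaks.

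The sites were acetylated in microglial nuclei and mostly not in neuronal or oligodendrocyte nuclei. PU1+ nuclei come from microglia, Olig2+ nuclei from the oligodendrocyte lineage and NeuN+ nuclei from neurons. Called H3K27ac regions of PU1+ nuclei covered 94.0% and 92.1% of shared sites in EKO libraries, and 72.8% and 94.7% in WT libraries. The value of 72.8% belonged to WT library 1, which had only 11149 called regions over 17.4 Mb, against 25990 to 36057 regions over 49.9 to 62.6 Mb in the other 3 libraries. The same libraries covered 69.4% and 65.6% of other WT SALL1 peaks in EKO, and 38.0% and 72.8% in WT. Within the top score quartile the classes lay close together, with 97.1% and 95.1% of shared sites against 96.3% and 94.9% of other peaks in EKO, and 80.2% and 97.9% against 78.8% and 97.2% in WT.

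Olig2+ regions covered 13.9% and 13.2% of the sites in EKO and 13.9% and 13.7% in WT. NeuN+ regions covered 17.1% and 14.6% in EKO and 15.7% and 14.7% in WT. These shares lay near those of the other SALL1 peaks, which were 14.6 to 15.1% for Olig2+ and 14.7 to 16.8% for NeuN+. There were 393 sites inside PU1+ regions and inside no Olig2+ or NeuN+ region, 432 inside regions of all 4 PU1+ libraries, and 14 inside no called region of any nuclei library. Of the 197 sites with an Olig2+ or NeuN+ region, 24.4% lay within 3 kb of a TSS, against 14.3% of the 407 sites without one. No genotype difference in these shares was tested.

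**Figure D3:**
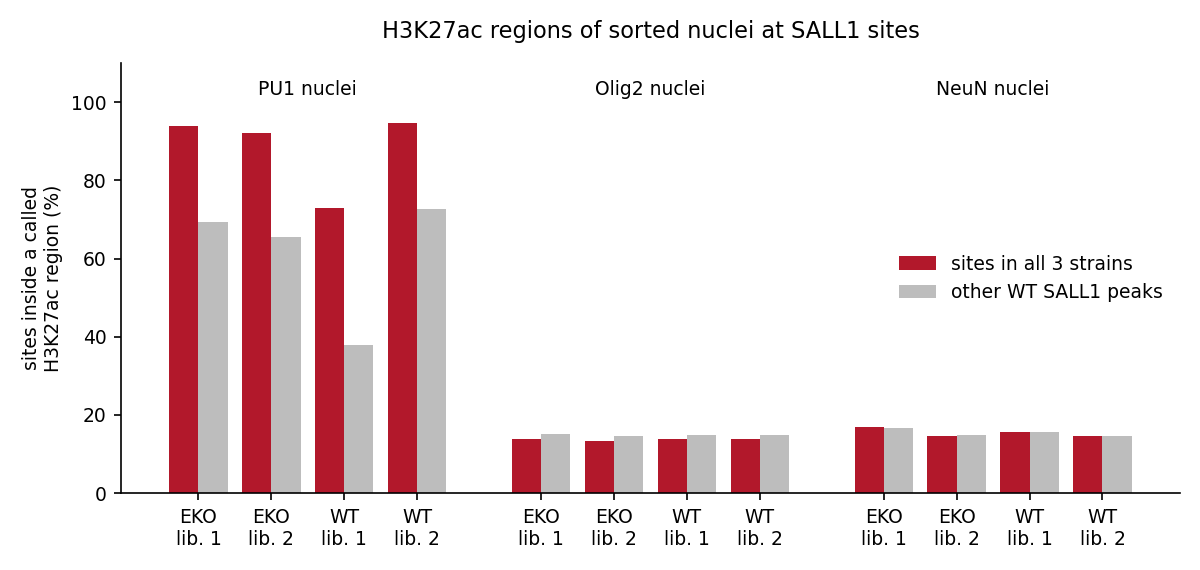
SALL1 sites inside H3K27ac regions of sorted nuclei. Bars give, for each library, the percent of shared sites (dark) and of other WT SALL1 peaks (light) that lie inside a called region of PU1+, Olig2+ or NeuN+ nuclei, with EKO libraries left of WT libraries. PU1+ bars of the shared sites stood at 72.8 to 94.7%, and Olig2+ and NeuN+ bars at 13.2 to 17.1%.

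H3K27ac of microglia was given in windows of 1000 bp, as tags per 10000000. EKO library 1 stood apart. Its median log2 level over tested windows was 6.41, against 4.95 in EKO library 2 and 5.57 and 5.20 in WT. Tags summed over all its windows, some of which overlap, came to 97.2% of its depth. This sum was 33.2% in EKO library 2 and 54.9% and 39.4% in WT. Of its low tag counts, 63.8% were multiples of 3, against 30.9 to 39.7% in the others. Depth, inferred from the worth of a single tag, was 9963454 and 13392915 tags in EKO and 24357795 and 10047696 tags in WT. Values were therefore quantile-normalized over the 4 libraries, and levels below are normalized tags unless called deposited. At promoter windows of marker genes, 4 of 8 monocyte and neutrophil genes had a window, and only 2 genes exceeded 16 tags in any library. Their windows summed to 1395 and 1371 normalized tags in EKO, against 215 and 235 in WT. Ly6c2, S100a8, S100a9 and Chil3 had no window. Those of border-associated macrophages (10 of 10 genes, 7 above 16 tags in a library) summed to 889 and 912 in EKO, against 458 and 405 in WT. Those of microglia (5 of 5, Sall1 among them) summed to 4477 and 4192 in EKO, against 6422 and 5787 in WT. Those of lymphocytes (2 of 6) summed to 156 and 153 in EKO, against 195 and 192 in WT, and those of endothelial cells (2 of 3) to 43.7 and 37.2 in EKO, against 83.4 and 98.5 in WT. Neuronal promoters (2 of 4) summed to 18.9 and 3.46 in EKO, against 11.8 and 7.92 in WT. The labels give the sorted cells as CD45+, and the study's methods describe a gate on low CD45, set to leave out cells with more of it. Fewer cells of a type and less signal per cell cannot be told apart in these libraries, and the part of such cells in the results below was not tested.

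Table windows covered 597 of the 604 sites, and 7 sites, among them 1 each at Mef2a and Ccr3, had none. The sites overlapped 865 windows, of which 801 passed a mean of 16 deposited tags and were tested, so that 546 sites had a tested window and 58 had none. A window was called at a Benjamini-Hochberg adjusted p under 0.05 over all 55285 tested windows, by limma on log2(tags + 1), together with a fold above 2.

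The Sall1 site itself lost acetylation in EKO. It lies in an intron of Sall1, scored 158 in WT, 40 in PWK and 28 in SPRET, and held no p300 or SMAD4 peak. The first of 2 windows over it had 0 and 0.75 deposited tags in EKO, against 279 and 147 in WT, and the other had 0 and 0.75 in EKO, against 128 and 76.6 in WT. EKO and WT libraries did not overlap, and the EKO values amount to no tag or a single tag, so no fold is given. The limma adjusted p of the first window was 2.85e-09, and it was 0.101 without WT library 1 and 0.0622 without EKO library 1. These windows checked the genotype of the 4 libraries at a site away from the deleted enhancer.

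H3K27ac was called changed in 78 of the 801 windows at shared sites, and in 16.2% of all tested windows, counts given as a description without a test. Of the 801, 50, both Sall1 windows among them, fell (6.24%) at 39 sites and 28 rose (3.50%) at 22 sites, whereas over all tested windows 7.56% fell and 8.68% rose. At the other WT SALL1 peaks 8.13% fell and 7.81% rose, and at windows without a WT SALL1 peak 7.39% fell and 9.08% rose. The share of falls was near the background, and the share of rises was below it. The median log2 change was −0.14 at shared sites, against −0.09 at the other peaks and −0.03 over all windows. Windows of 485 sites had no call. Neither the counts nor the median hold on every setting. As deposited, without quantile normalization, limma called 3 falls and 0 rises (5 and 12 at an unadjusted p under 0.05). Over all tested windows it then called 71 falls and 450 rises. The median turned to 0.13, with 0.28 over all windows. With 1 library left out, calls became fewer, at shared sites and over all tested windows alike. In both they were lost without WT library 1 or EKO library 1. The median at shared sites stayed at −0.17 to −0.12 with 1 library left out.

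Score went with these shares as it did with p300. Among top-quartile peaks, 6.0% of windows fell and 2.65% rose at shared sites, against 6.78% and 3.68% at the other peaks, and the median changes were −0.16 and −0.17. Top-quartile shared sites held 717 of the 801 windows and 19 of the 28 rises. In the quartile below, 9 of 77 windows at shared sites rose (11.7%). Median levels of the shared windows were 6.03 in EKO and 6.23 in WT on the log2 scale, against 5.65 in EKO and 5.67 in WT at the other peaks.

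**Figure D4:**
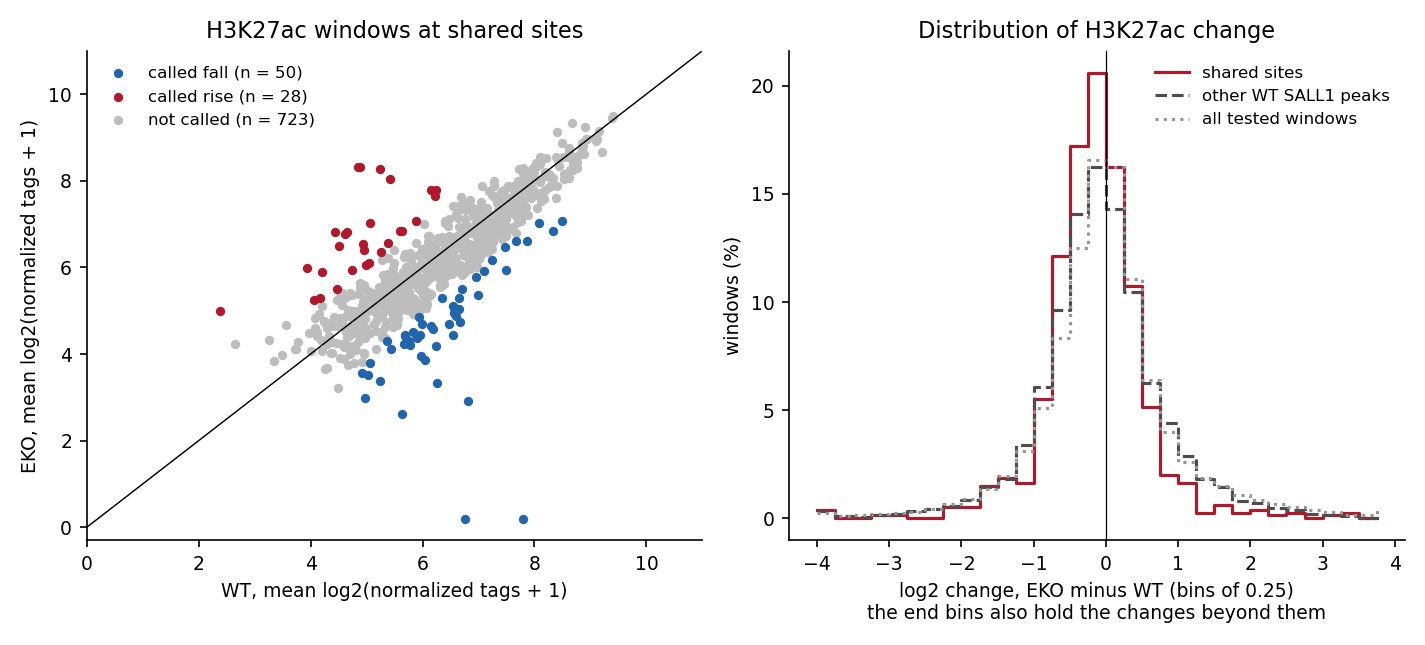
H3K27ac at shared SALL1 sites. The left panel plots the mean log2(normalized tags + 1) of each tested window in EKO (vertical) against WT (horizontal) with the line of equality, and the right panel gives the distribution of log2 change, EKO minus WT, at shared sites, other WT SALL1 peaks and all tested windows. The 50 falls include both Sall1 windows near 0 in EKO, and the shared sites have a shorter upper tail than the other classes.

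The largest falls outside Sall1 lay at distal and intronic sites near genes of mixed roles. Tmc7, of the transmembrane channel-like family, had 8.51 and 5.05 normalized tags in EKO, against 99.3 and 126 in WT, so that the log2 change was −3.90 ± 0.37 (SE, with an adjusted p of 2.04e-07 by limma). This was also the site that met the overlap rule by the fewest bases, with a WT score of 27, and it held WT SMAD4 without p300. The window nearest to 1700122C19Rik, intergenic with p300, had 3.51 and 7.31 tags in EKO, against 44.4 and 53.2 in WT (−3.02 ± 0.50, limma adjusted p = 0.000148). C1qtnf7, of the C1q and TNF-related protein family, had 3.96 and 19.1 tags in EKO, against 80.5 and 70.9 in WT (−2.94 ± 0.48). In each of these windows both EKO libraries lay below both WT libraries.

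The other falls among the 8 largest were smaller. Prkcq, encoding protein kinase C theta, had 16.8 and 10.8 tags in EKO, against 61.4 and 68.2 in WT (−2.18 ± 0.35), at a site without p300 or SMAD4. Usp24, a ubiquitin protease, had 18.9 and 22.6 in EKO, against 101.7 and 84.3 in WT (−2.11 ± 0.29). Il20rb, a receptor chain for cytokines of the interleukin 20 group, had 19.1 and 15.5 in EKO, against 64.8 and 86.8 in WT (−2.06 ± 0.32), at a site with p300 and WT SMAD4. The windows at Ywhah, a 14-3-3 protein, and Gm13889 fell by 2.00 and 1.93 on the log2 scale. The Gm13889 window overlapped only the edge of its site. Adjusted p-values of these 8 windows by limma ran up to 0.0080 (Ywhah), and Ywhah alone missed the threshold with DESeq2 (adjusted p = 0.0644).

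The largest rises were led by 2 genes. Ehd1, an ATPase of endocytic recycling, had 365 and 278 normalized tags in EKO, against 29.7 and 26.2 in WT, in a window at its promoter (log2 change 3.47 ± 0.22, SE; limma adjusted p = 1.08e-09). Its SALL1 site scored 175 in WT, 20 in PWK and 19 in SPRET, and held a mutant-labelled SMAD4 peak but neither p300 nor WT SMAD4. The centre of this site lay outside the window, which overlapped only its edge. Tspan3, a tetraspanin, had 315 and 301 tags in EKO, against 43.1 and 31.1 in WT (3.04 ± 0.21, limma adjusted p = 4.06e-09). Both EKO libraries lay above both WT libraries in each.

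Hivep2, a zinc finger factor gene, had 26.2 and 36.7 tags in EKO, against 3.51 and 5.05 in WT (2.62 ± 0.59). The Hivep2 window overlapped only the edge of its site, whose centre lay outside it. Gm15326 had 94.1 and 133 in EKO, against 18.9 and 22.6 in WT (2.38 ± 0.28). Ica1l had 105 and 119 in EKO, against 28.6 and 20.3 in WT (2.17 ± 0.27), at a site with WT SMAD4. The windows at Enpp6, a choline phosphodiesterase, 1700112H15Rik and Zfp36l1, an RNA-binding protein that promotes mRNA decay, rose by 2.05, 1.99 and 1.95 on the log2 scale. Of these 8 rises, 6 lay at sites without p300. Over all shared sites, p300, mapped in WT libraries only, overlapped 60.9%.

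**Figure D5:**
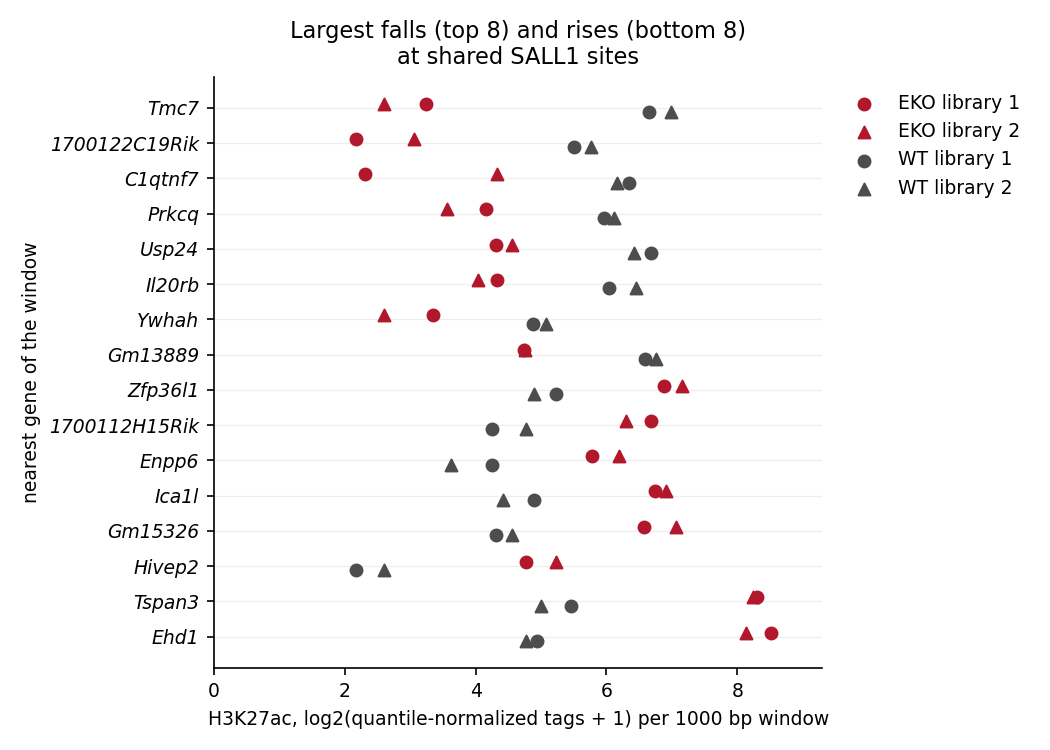
H3K27ac of the 8 largest called falls and 8 largest called rises at shared SALL1 sites, with 1 window per gene and without Sall1. Each row is the window nearest to one gene, and points give log2(normalized tags + 1) per library, with EKO in red and WT in grey, circles for library 1 and triangles for library 2. The 8 falls stand above the 8 rises, and the EKO and WT libraries do not overlap in any row.

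H3K27ac calls were also counted by p300. With p300, 4.75% of 526 windows fell and 1.14% rose, and without p300, 9.09% of 275 fell and 8.0% rose, so that 22 of the 28 rises lay at sites without p300. The p300 list comes from WT libraries only, and WT H3K27ac enters the change, so p300 class and change are not independent. Levels differed as well, with medians of 6.28 in EKO and 6.45 in WT with p300, and 5.66 in EKO and 5.71 in WT without. The other SALL1 peaks gave 8.37% falls and 4.24% rises with p300, and 7.99% and 9.85% without. At shared sites in both SMAD4 lists, 1.44% of 139 windows fell and 2.16% rose, and at sites in neither list 7.46% of 456 fell and 4.17% rose. Windows within 3 kb of a TSS fell in 1.86% and rose in 4.35% of 161 cases, and those farther away fell in 7.34% and rose in 3.28% of 640. The differences between these classes were described and not tested.

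Of 34 homeostatic microglial genes, 31 had a WT SALL1 peak and 8 a shared site: Sall1, P2ry13, Csf1r, Fcrls, Mertk, Cst3, Il10ra and Cmklr1. Of their 13 tested windows, 2 fell, both at Sall1, none rose, and the median log2 change was −0.75, against −0.03 over all windows, of which 7.56% fell and 8.68% rose. The list as a whole, with or without a SALL1 site, had 84 falls and 8 rises among 543 tested windows and a median of −0.36. At an unadjusted p under 0.05, limma gave 7 lower and 1 higher, and edgeR and DESeq2 each called the same numbers, 2 falls and 0 rises. Windows of Sall1, which checked the genotype above, enter these counts and the medians of −0.75 and −0.36. No value was computed without them. P2ry13, a receptor for ADP, had 125 and 96.7 normalized tags in EKO, against 216 and 192 in WT at its promoter (−0.88 ± 0.18, limma adjusted p = 0.00143), which stayed under the fold of 2. Cst3, encoding cystatin C, had 43.0 and 27.3 in EKO, against 61.6 and 66.8 in WT (−0.89 ± 0.29, limma adjusted p = 0.0324, DESeq2 adjusted p = 0.174). Il10ra, a chain of the interleukin 10 receptor, had 79.1 and 74.5 in EKO, against 106 and 161 in WT (−0.76 ± 0.22, limma adjusted p = 0.0168). Cmklr1, the chemerin receptor, had 326 and 342 in EKO, against 261 and 284 in WT (0.29 ± 0.13), which did not pass.

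Of 29 genes of the TGF-beta and SMAD pathway, 2 had shared sites and none of their 3 windows was called by limma, edgeR or DESeq2 (0 lower and 2 higher at an unadjusted p under 0.05 by limma). The receptor gene Tgfbr1 had 148 and 175 tags in EKO, against 107 and 97.7 in WT (0.65 ± 0.19, limma adjusted p = 0.0159), and Itgav, an integrin chain that releases latent TGF-beta, had 86.6 and 80.4 in EKO, against 53.2 and 36.6 in WT (0.90 ± 0.26, limma adjusted p = 0.0152). Both sites held p300 and SMAD4 peaks of both lists. Each pair of EKO libraries lay above the WT pair, at a fold under 2, and with DESeq2 the adjusted p was 0.128 for Tgfbr1 and 0.105 for Itgav. Over all 393 tested windows of the list 17 fell and 70 rose, with a median of 0.10. Over all tested windows of any gene 7.56% fell and 8.68% rose, and 3 windows are few beside these shares.

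Of 39 macrophage transcription factor genes, 12 had 18 shared sites with 27 tested windows, and these were Runx1, Mef2a, Mef2c, Maf, Fos, Ets1, Fli1, Etv6, Ikzf1, Klf4, Zeb2 and Rbpj. By limma there was 1 fall and no rise, with 8 lower and 2 higher at an unadjusted p under 0.05, and the median change was −0.18, beside 7.56% falls and 8.68% rises over all tested windows. All 790 tested windows of these genes gave 39 falls, 58 rises and a median of −0.10. edgeR called 1 fall and 1 rise, and DESeq2 1 fall. The fall was at Fli1, an ETS factor gene, with 57.4 and 50.5 tags in EKO, against 123 and 123 in WT (−1.18 ± 0.22, limma adjusted p = 0.000539). The Fli1 window overlapped only the edge of its site. Ikzf1 (−0.81), Ets1 (−0.83) and Zeb2 (−0.42) lay lower in EKO and Rbpj (0.68), the DNA-binding effector of Notch, higher, all past the adjusted threshold by limma and under the fold of 2. DESeq2 lost Ets1 (adjusted p = 0.153), Zeb2 (0.0898) and Rbpj (0.164).

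Cytokine and innate genes had 7 of 26 members with shared sites (Il1a, Il1b, Il6, Tlr7, Cd14, Nlrp3 and Socs3), and none of their 10 windows was called by limma, edgeR or DESeq2 (3 lower and 0 higher at an unadjusted p under 0.05 by limma), with a median change of −0.12, whereas all 205 tested windows of the list gave 24 falls, 34 rises and a median of 0.09. The Il1b window, upstream of the interleukin 1 beta gene, had 121 and 112 tags in EKO, against 208 and 182 in WT (−0.74 ± 0.18, limma adjusted p = 0.00403). The Nlrp3 windows, with p300 and SMAD4 of both lists, had log2 changes of −0.18, −0.07 and 0.06, and their EKO and WT libraries overlapped. Of 31 disease-associated and lipid genes, 1 had a shared site, Cd9, a tetraspanin. Its window had 34.3 and 30.9 in EKO, against 83.0 and 51.9 in WT (−0.99 ± 0.30, limma adjusted p = 0.0188). It was not called by limma, for it stayed under the fold of 2. edgeR called it a fall (−1.09, adjusted p = 0.00525) and DESeq2 did not call it (adjusted p = 0.0552). Over all 241 tested windows of that list 28 fell and 68 rose, with a median of 0.29. Over all tested windows of any gene 7.56% fell and 8.68% rose, and 10 windows or 1 are few beside these shares.

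Some markers of other cells had a shared site. Of the 6002 genes nearest to a WT SALL1 peak, 523 had a shared site. Among list genes with a WT peak, 1 of 12 border-associated macrophage, 1 of 5 monocyte or neutrophil and 1 of 6 lymphocyte genes did. Cd74 of the border-associated macrophage list had 1 window (0.13 ± 0.20), and Ccr2 of the monocyte list had a site whose window was not tested. Ms4a1 of the lymphocyte list, encoding CD20, rose, with 61.4 and 55.5 tags in EKO, against 16.1 and 19.1 in WT (1.68 ± 0.33, limma adjusted p = 0.000804). Its window was annotated as intronic, 21682 bp from the TSS. The study describes at the Ms4a locus of EKO microglia a pattern similar to that at Apoe. At Apoe it reports gained H3K27ac at places without SALL1 and no change at the SALL1 sites. The Ms4a1 window, by contrast, lies over a SALL1 site. Over all tested windows 7.56% fell and 8.68% rose. Genes of the neuron, oligodendrocyte, astrocyte and endothelial lists had no shared site. Only 1, 3, 1 and 4 genes of these lists, in that order, had any WT SALL1 peak.

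At the genes with most shared sites, windows of one gene moved unequally. Over all tested windows 7.56% fell and 8.68% rose. Ifngr1 had 5 tested windows over 4 sites, of which 1, over a site at −31961 bp from the TSS, rose, with 79.6 and 53.0 tags in EKO, against 31.8 and 30.0 in WT (1.05 ± 0.30, limma adjusted p = 0.0127), while the other 4 changed by −0.16 to 0.31 and were not called. Srgap2 had 1 fall among 3 tested windows, with 54.4 and 35.5 in EKO, against 106.6 and 100.2 in WT (−1.22 ± 0.26, limma adjusted p = 0.00149). None of the Tmsb4x, Klf4, Nlrp3 or Zfhx3 windows was called. Among the 6 best-ranked sites, Numb (−1.06 ± 0.36) and Abca9 (−1.31 ± 0.32) fell and the other 4 had changes of −0.35 to 0.22. The Numb call was lost with edgeR (adjusted p = 0.0750) and DESeq2 (adjusted p = 0.225).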

How the data were processed

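Reads were mapped to mm10 by the authors, and the submitters' processing notes also name Bowtie2, HOMER and DESeq2. From permissive HOMER peak calls of each library, the authors kept those reproducible between libraries at an irreproducible discovery rate under 0.05, and the deposited SALL1, p300 and SMAD4 lists give a reproducibility score and an enrichment score for each peak. In the deposited table for microglia, H3K27ac is a signal in 133129 windows of 1000 bp, expressed as tags per 10000000 of a library, with the nearest gene as the authors annotated it. The nuclei files list called regions, whose deposited signal is a normalized tag count. The aligner version for these libraries is not given in the sources used here. No column of the authors' own comparisons was used, nor were input libraries.

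Peaks overlapped if they shared 1 bp, and shares carry Wilson 95% intervals. Windows with a mean above 16 tags entered limma (version 3.58.1, R 4.3.3, variance trend allowed) as quantile-normalized log2(tags + 1). Changes are EKO minus WT, and the pseudocount of 1 understates those of low windows. The study used DESeq2 with the same thresholds, an adjusted p under 0.05 and a fold above 2, whereas limma was chosen because the table holds normalized tags. All values (100%) were whole tags within 0.05 tags once divided by the worth of a single tag, so edgeR 4.0.16 and DESeq2 1.42.0 served as alternatives on those tags, and edgeR called 49 falls and 33 rises at shared sites. Motifs were searched with Python 3.11.15 and pysam 0.24.0 in GRCm38, leaving out 14 WT peaks off the main chromosomes, none of them shared.

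Named genes were the 8 largest falls and rises with the EKO libraries on one side of both WT libraries (1 window per gene, without Sall1), the 6 genes with most shared sites (ties by highest score), the 6 sites of best mean rank, and up to 5 genes of each gene list by smallest p. Prdm1, Il17ra and the sites next to the overlap threshold were named after their values were seen. Members, gene lists and motifs were chosen with earlier results of these data known. The ETS core and the division of EKO library 1 by 3 were added after seeing the data.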

Additional observations from a re-analysis of the deposited data

How the results depend on the processing

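The shared sites numbered 577 where the partners had to cover 50% of the WT peak, 511 with centres within 100 bp and 477 at a discovery rate of 0.01 in all 3 lists. p300 then overlapped 60.7% and 64.4% of the last 2 sets, and WT SMAD4 33.1% and 35.8%. By site centre, PU1+ WT library 1 covered 68.5% of sites in place of 72.8%. Window calls were 49 falls and 33 rises with edgeR, 40 and 25 with DESeq2, 44 and 22 with a pseudocount of 8, 40 and 20 without the filter, and 44 and 24 above a mean of 32 tags. With the tags of EKO library 1 divided by 3, an alternative chosen after seeing the data, they were 47 and 33 with edgeR and 35 and 21 with DESeq2. On the values as deposited they were 3 and 0, and the median change turned to 0.13. Relative to all tested windows that median was −0.15 as deposited and −0.12 after quantile normalization. Leaving out 1 library gave 0 to 30 falls, 0 to 14 rises and a median of −0.17 to −0.12, and the counts were 0 without WT library 1 or EKO library 1. A lone library is there assumed to vary like the other genotype.

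Whether equal library numbers pair EKO and WT is not stated in the labels, and same-numbered deviations correlated at 0.04 over all tested windows. With the replicate block, limma called 51 falls and 28 rises at shared sites and the median change was −0.14. Of the 35 named windows past an adjusted p of 0.05, 34 stayed past it with edgeR, 25 with DESeq2 and 2 as deposited. At 16 tags the filter left 64 of 865 windows untested, and 7 sites overlapped no table window.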
